A study of Mus musculus with 6 samples.

Results

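The 8 genes described here encode the secreted VEGF ligands (Vegfa, Vegfb, Vegfc, Vegfd and Pgf) and the receptor tyrosine kinases that bind them (Flt1, Kdr and Flt4). They were taken by gene symbol, each of which had 1 row, from 78317 mouse gene rows of which 13372 held enough counts to be tested. Of the 8 genes, 5 passed this filter on low counts (Vegfa, Vegfb, Vegfd, Flt1 and Flt4) and 3 did not (Vegfc, Pgf and Kdr). Libraries of messenger RNA were compared between 2 groups of 3 from MCEC, an immortalised endothelial line from mouse heart. The control group was wild type MCEC and the other group was MCEC carrying a short hairpin RNA against Fat4 (ShFat4), a giant atypical cadherin that orients cells within a sheet and feeds into the Hippo pathway. No treatment of either group is named in the labels. The sources used here do not say whether control cells carried a non-targeting hairpin, whether the knockdown line was 1 clone, or whether replicates were separate cultures. P-values therefore measure only how far these libraries differ among themselves, which may be technical.

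VEGF ligands are secreted dimers that bring pairs of receptors together, so that the kinase domains inside the cell phosphorylate each other. Vegfa acts mainly through Kdr (VEGF receptor 2) to drive the growth and permeability of blood vessels, while Flt1 (VEGF receptor 1) binds Vegfa, Vegfb and Pgf tightly and, as a membrane protein with a weak kinase or as a soluble splice form, holds ligand away from Kdr. Vegfc and Vegfd act mainly through Flt4 (VEGF receptor 3), best known from lymphatic endothelium and from sprouting vessels, and in the heart cardiomyocytes and stromal cells supply much of the ligand that endothelial cells receive.

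Total counts lay between 10305810 and 11870091 per library. Levels are given as CPM, a gene's counts per 1000000 counts of its library, after TMM scaling, which adjusts library sizes so that most genes keep the same level across libraries. A count of 0 allows up to 3 counts, or 0.253 to 0.291 CPM depending on the library, for counting error only. Fat4 itself was at 0.971, 1.94 and 2.60 CPM in control replicates 1, 2 and 3 and at 0.714, 0.980 and 0.817 CPM in the knockdown replicates, a log2 fold change of -1.17 (SE 0.35, edgeR adjusted p = 0.033). The library labelled control replicate 1 thus lay inside the knockdown range of Fat4, and the called changes of the family, its ratios and Vegfd are also given without it. Without that library the Fat4 change was -1.44 (edgeR adjusted p = 0.00213), and leaving out any of the other 5 libraries lost the call (edgeR adjusted p up to 0.205, without control replicate 3). The Fat4 call was also lost with limma-voom (limma-voom adjusted p = 0.0674) and with GC and length offsets (edgeR adjusted p = 0.058). It held in 8 of the 15 other settings that gave a value for Fat4. The endothelial label was poorly borne out by marker genes. Of 15 endothelial markers, 10 had a mean under 1 CPM over the 6 libraries, and Tie1, Vwf, Erg, Cldn5, Emcn, Robo4 and Plvap had no count in any library, while Cd34 was at 52.5 CPM and Eng at 26.3 CPM in control. Of the 5 endothelial markers tested, Ecscr rose by 0.72 on the log2 scale (edgeR adjusted p = 0.000744), a call held in all 17 other settings, and Eng fell by 0.42 (edgeR adjusted p = 0.0195), a call lost in 5 of them. The summed level of the 15 was 95.9 to 102 CPM in the control and 94.0 to 101 CPM in the knockdown libraries. All 11 mesothelial markers were tested and 6 were lower in the knockdown (54.5%, beside 8.44% lower among all tested genes), with a summed level of 1880 to 1990 CPM in the control and 1640 to 1700 CPM in the knockdown libraries. The macrophage markers summed to 3.62 to 5.15 and 3.62 to 4.45 CPM, the fibroblast and mural markers to 2630 to 2710 and 2240 to 2440 CPM, and the cardiomyocyte markers to 7.65 to 9.71 and 14.4 to 19.1 CPM, nearly all of it Myl7. Means over the 6 libraries lay under 1 CPM for 7 of 13 fibroblast and mural, 5 of 6 macrophage and 8 of 9 cardiomyocyte markers. The fibroblast and mural markers Lum and Tcf21 had no count. Among the 6 fibroblast and mural markers tested, 1 was higher, 1 lower and 4 were not called (33.3% called, beside 17.4% of all tested genes). Their median log2 fold change was 0.17, although the summed level of that list was lower in the knockdown libraries. Ribosomal protein genes took 11.8 to 13.4% of counts in control and 14.1 to 14.9% in knockdown libraries, and mitochondrially encoded genes 4.84 to 5.09% and 4.49 to 4.85%. In bulk RNA, fewer cells of a type and less RNA per cell cannot be told apart, and the part of these marker genes and shares in the other results was not tested.

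Promoter sequences are shown for Vegfa and Flt1, which were lower in the knockdown, and for Vegfb, a ligand gene whose level was not called different. Each is the 250 bases before the transcription start that RefSeq gives on mouse GRCm38.p6, read 5′ to 3′ on the gene's own strand, the minus strand for all 3 genes. Capitals mark matches, on either strand, to the motifs found in these windows: SP1 (GGGCGG), a core of the hypoxia-response element (GCGTG) and the TATA box (TATAAA).
Vegfa, chr17:46032378-46032627: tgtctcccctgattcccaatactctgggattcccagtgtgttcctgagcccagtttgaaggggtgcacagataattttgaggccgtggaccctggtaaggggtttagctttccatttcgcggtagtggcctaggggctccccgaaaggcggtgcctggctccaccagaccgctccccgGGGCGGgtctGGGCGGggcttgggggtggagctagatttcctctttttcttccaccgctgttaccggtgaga
Flt1, chr5:147726012-147726261: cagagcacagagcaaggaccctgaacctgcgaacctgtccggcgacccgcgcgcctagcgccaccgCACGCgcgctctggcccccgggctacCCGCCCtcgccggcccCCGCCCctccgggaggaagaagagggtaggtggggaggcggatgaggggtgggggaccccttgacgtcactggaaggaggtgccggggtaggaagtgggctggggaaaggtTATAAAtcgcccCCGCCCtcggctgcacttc
Vegfb, chr19:6987652-6987901: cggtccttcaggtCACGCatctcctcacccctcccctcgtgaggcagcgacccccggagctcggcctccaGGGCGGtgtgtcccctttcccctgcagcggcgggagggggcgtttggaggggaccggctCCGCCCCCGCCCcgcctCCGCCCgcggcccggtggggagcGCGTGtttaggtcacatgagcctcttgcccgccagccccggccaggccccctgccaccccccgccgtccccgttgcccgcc
The Vegfa window held 2 SP1 matches, which began 72 and 62 bases before the start. The Flt1 window held a TATA box 31 bases before the start, SP1 matches at 158, 142 and 19 bases, and 1 hypoxia-response core at 184 bases. In the Vegfb window there were 4 SP1 matches, some next to each other, and 2 hypoxia-response cores at 237 and 81 bases. Among all 32851 RefSeq windows of this length, 32.7% held an SP1 match, 28.2% a GCGTG core and 12.4% a TATA box. A match to these motifs somewhere in a window was thus not rare. The shares take no account of the position of a match or of the GC content of a window. The other hypoxia-response core (ACGTG, in 16.6% of windows), the TEAD motif (GGAATG, 12.6%) and the ETS motif (CCGGAA, 12.0%) were searched as well and had no match in these 3 windows. GC content was 59.2% for Vegfa, 70.4% for Flt1 and 76.4% for Vegfb, against a median of 52.4% over all windows. The 2 genes that were lower in the knockdown thus did not share a motif that Vegfb lacked. A second annotated start of Vegfa and the starts of Kdr, Flt4, Vegfd and Pgf lay in annotated exons and are not shown, nor is that of Vegfc, which was too scarce to test, and a match is a description of letters, not of a bound site.

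Of the 5 genes tested, 3 differed between knockdown and control libraries: Vegfa and Flt1 fell and Flt4 rose (quasi-likelihood test of edgeR, threshold 0.05 on p-values adjusted over all 13372 genes by Benjamini-Hochberg). Over all tested genes 17.4% passed, 8.94% as higher and 8.44% as lower. The same 3 genes had groups that did not overlap in any library, which was so for 34.9% of all tested genes. Among ligands 1 of 3 tested genes passed, and among receptors 2 of 2 tested genes passed, in opposite directions. The 3 scarce genes have no test, so these counts are over the 5 tested genes and not the family.

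**Figure D1:**
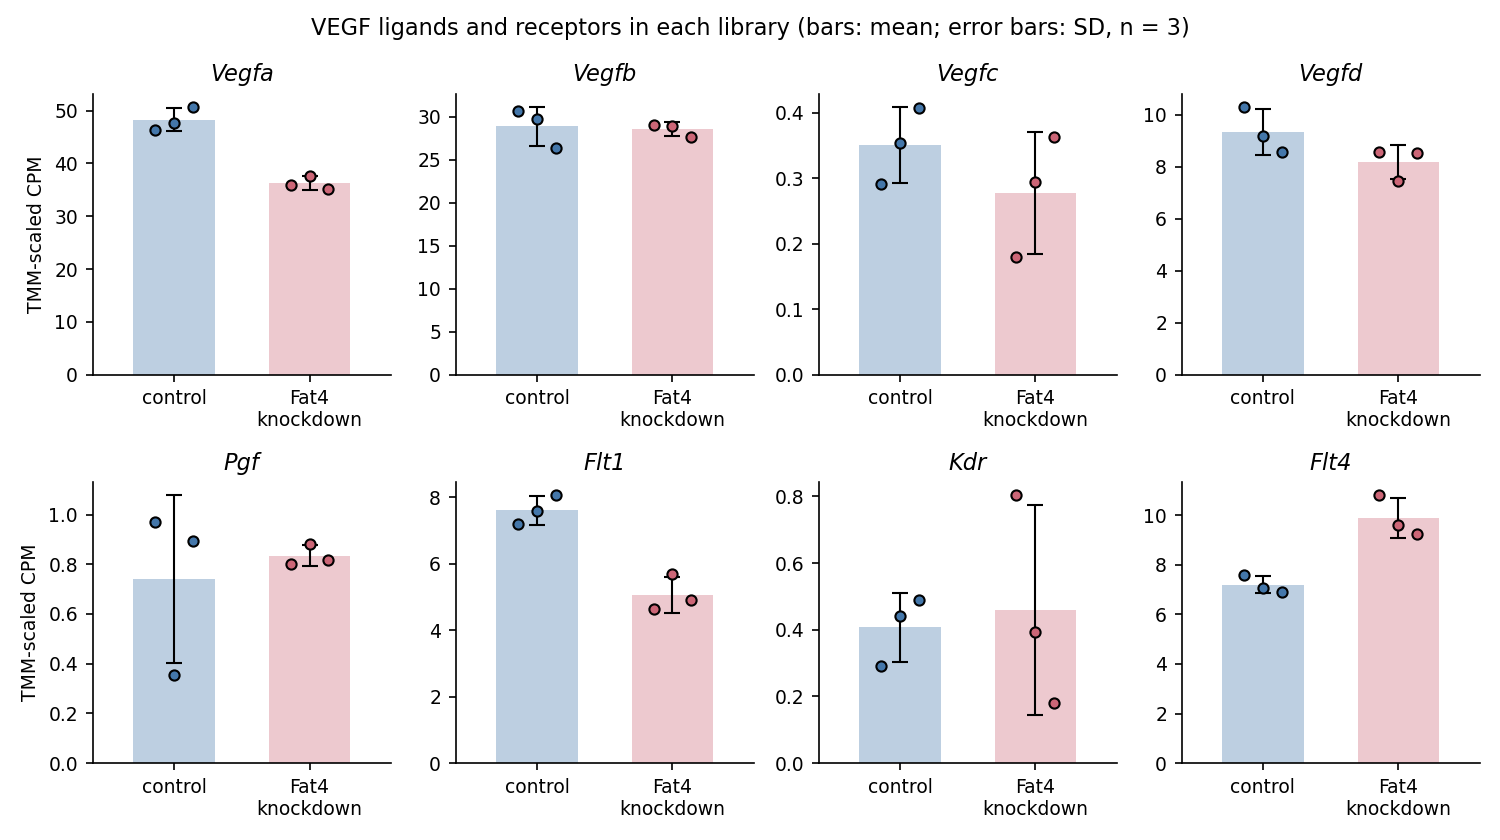
TMM-scaled CPM (vertical axes, each gene on its own scale starting at 0) of the 8 genes in each library, with control in blue and Fat4 knockdown in red; bars are means and error bars SD, n = 3. The knockdown points lie below all control points for Vegfa and Flt1 and above them for Flt4, and the groups overlap for the other 5 genes.

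Levels of different genes can be compared only per length, and here each gene's CPM was divided by its total exon length in kilobases. That scale assumes even coverage along the transcript, which the sources used here do not describe. It also assumes that transcripts hold all exons of the gene, and where they do not, the level is set too low. In control libraries the order was Vegfb at 18.0 ± 1.42 CPM per kb, Vegfa at 11.3 ± 0.514, Vegfd at 3.88 ± 0.367, Flt4 at 0.873 ± 0.0418, Flt1 at 0.564 ± 0.0323, Pgf at 0.255 ± 0.116, Vegfc at 0.143 ± 0.0236 and Kdr at 0.0451 ± 0.0114 (SD, n = 3). Every neighbour in this order was separated by more than the spread between libraries except Pgf and Vegfc, whose ranges of 0.122 to 0.334 and 0.119 to 0.166 CPM per kb overlapped. The knockdown libraries kept the order by their means, and there Kdr (0.0201 to 0.0890 CPM per kb) overlapped Vegfc (0.0729 to 0.148), while Pgf (0.277 to 0.304) did not. Without the length term Vegfa, with 4285 exon bases against 1605 for Vegfb, had the higher CPM of those genes. The ligand genes Vegfb, Vegfa and Vegfd thus stood above all receptor genes per length. Kdr, the main signalling receptor for Vegfa, was the scarcest of the 8 on that scale. By CPM alone Vegfc was lower than Kdr in control, at a mean of 0.351 against 0.407 CPM, with overlapping ranges.

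Vegfa, the main growth factor of blood vessels (ENSMUSG00000023951, GRCm39 chr17:46327919-46343295, minus strand), was at 46.4, 47.7 and 50.7 CPM in control replicates 1, 2 and 3 and at 36.0, 37.7 and 35.1 CPM in knockdown replicates 1, 2 and 3. All 3 knockdown libraries lay below the lowest control library. Its mean fell from 48.3 ± 2.20 to 36.3 ± 1.33 CPM (SD, n = 3), and the fitted log2 fold change was -0.41 (SE 0.07, 95% interval -0.56 to -0.27, edgeR adjusted p = 0.00115). The size of this change exceeded that of 89.1% of tested genes, and without control replicate 1 this change was -0.44 (edgeR adjusted p = 0.000207). Vegfa passed under each of the 17 other settings tried, with log2 fold changes from -0.47 to -0.38. Counts per gene cannot separate the Vegfa splice forms, which differ in how tightly they hold to the matrix. Vegfa shares 64 exon bases with an unnamed gene on the opposite strand, which had 5 counts in all 6 libraries together.

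Vegfb, which binds Flt1 and is best known from heart and fatty acid handling (ENSMUSG00000024962, GRCm39 chr19:6959841-6965019, minus strand), was at 30.7, 29.8 and 26.4 CPM in the control and 29.1, 29.0 and 27.7 CPM in the knockdown libraries. The groups overlapped, and the knockdown values lay inside the control range. The log2 fold change was -0.01 (SE 0.08, edgeR adjusted p = 0.926), and its 95% interval of -0.18 to 0.15 leaves out a change as large as the one estimated for Vegfa.

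Vegfd, a ligand of Flt4 whose gene lies on the X chromosome (ENSMUSG00000031380, GRCm39 chrX:163156374-163185646, plus strand), was at 10.3, 9.18 and 8.55 CPM in the control and 8.57, 7.45 and 8.53 CPM in the knockdown libraries. Knockdown replicate 1 lay just above the lowest control library, so the groups overlapped. The log2 fold change of -0.18 (SE 0.12, 95% interval -0.44 to 0.07) did not pass the test (edgeR adjusted p = 0.327), and the interval includes both no change and a decrease of the size seen for Vegfa. Leaving out control replicate 1 took it to -0.11 (edgeR adjusted p = 0.612) and leaving out knockdown replicate 2 took it to -0.12 (edgeR adjusted p = 0.6).

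Vegfc, the main lymphatic growth factor (ENSMUSG00000031520, GRCm39 chr8:54530641-54640131, plus strand), had 3, 4 and 5 counts in control and 2, 3 and 4 counts in knockdown libraries. Every library was thus near the limit that a count of 0 allows, with mean levels of 0.351 ± 0.0579 CPM for control and 0.278 ± 0.0932 CPM for knockdown (SD, n = 3). The summed counts of 12 and 9, scaled by library totals, gave a knockdown to control ratio of 0.754 with an exact interval of 0.28 to 1.95 that covers counting error only. A difference between groups was not detectable at this depth.

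Pgf, placental growth factor, a ligand of Flt1 alone (ENSMUSG00000004791, GRCm39 chr12:85213409-85224564, minus strand), had 10, 4 and 11 counts in control and 9 counts in each knockdown library. Control replicate 2 stood apart at 0.353 CPM, against 0.803 to 0.971 CPM in the other 5 libraries. The ratio of summed counts, 25 in control and 27 in knockdown, was 1.09 (exact interval 0.606 to 1.95), so no difference was detectable.

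Flt1, the high-affinity receptor that restrains Vegfa (ENSMUSG00000029648, GRCm39 chr5:147498414-147662821, minus strand), was at 7.19, 7.60 and 8.06 CPM in the control and 4.64, 5.68 and 4.90 CPM in the knockdown libraries. These came from 74 to 99 counts per control library and 52 to 58 counts per knockdown library. The highest knockdown library lay below the lowest control library. Its mean fell from 7.61 ± 0.436 to 5.07 ± 0.542 CPM (SD, n = 3), and the fitted log2 fold change was -0.59 (SE 0.13, 95% interval -0.88 to -0.31, edgeR adjusted p = 0.00743). The size of this change exceeded that of 96.0% of all tested genes, and without the library labelled control replicate 1 it was -0.63 on the log2 scale (edgeR adjusted p = 0.00472). DESeq2 gave nearly the same log2 fold change, -0.58, but not the call (DESeq2 adjusted p = 0.0699). With GC and length trends removed, Flt1 was at -0.45 and Flt4 at 0.63, and both passed (edgeR adjusted p = 0.0288 and 0.00217). Whether the decrease lay in the membrane or the soluble splice form cannot be told from counts per gene.

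Kdr, the principal signalling receptor of vascular endothelium (ENSMUSG00000062960, GRCm39 chr5:76093487-76139118, minus strand), had 3, 5 and 6 counts in control and 9, 4 and 2 counts in knockdown libraries. Both the highest and the lowest library belonged to the knockdown group. Mean levels were 0.407 ± 0.103 CPM for control and 0.459 ± 0.316 CPM for knockdown (SD, n = 3), and the ratio of summed counts was 1.08 (exact interval 0.484 to 2.41). At 14 counts over 3 control libraries, neither a change by a factor of 2 nor its absence could be seen.

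Flt4, the receptor of Vegfc and Vegfd (ENSMUSG00000020357, GRCm39 chr11:49500090-49543566, plus strand), was at 7.57, 7.07 and 6.92 CPM in the control and 10.8, 9.60 and 9.25 CPM in the knockdown libraries. All knockdown libraries lay above the highest control library. Its mean went from 7.19 ± 0.344 to 9.89 ± 0.811 CPM (SD, n = 3), and the fitted log2 fold change was 0.46 (SE 0.12, 95% interval 0.22 to 0.71, edgeR adjusted p = 0.0134). This call was the least stable of the 3. It was lost without control replicate 2 (log2 change 0.45, edgeR adjusted p = 0.0582), without control replicate 3 (0.44, edgeR adjusted p = 0.0550), without knockdown replicate 1 (0.39, edgeR adjusted p = 0.0714) and with DESeq2 (0.47, DESeq2 adjusted p = 0.0998), and it held without control replicate 1 (0.50, edgeR adjusted p = 0.00988). An unnamed opposite-strand gene shares 237 of its exon bases and had no count. Of 8 lymphatic markers, Prox1, Lyve1, Ccl21a and Itga9 had no count in any library, and the summed level of all 8, 143 to 160 CPM in the control and 161 to 167 CPM in the knockdown libraries, came almost wholly from Nr2f2 and Pdpn. Only 2 of the 8 were tested, of which 1 was called higher and 1 was not called, beside 8.94% higher among all tested genes.

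**Figure D2:**
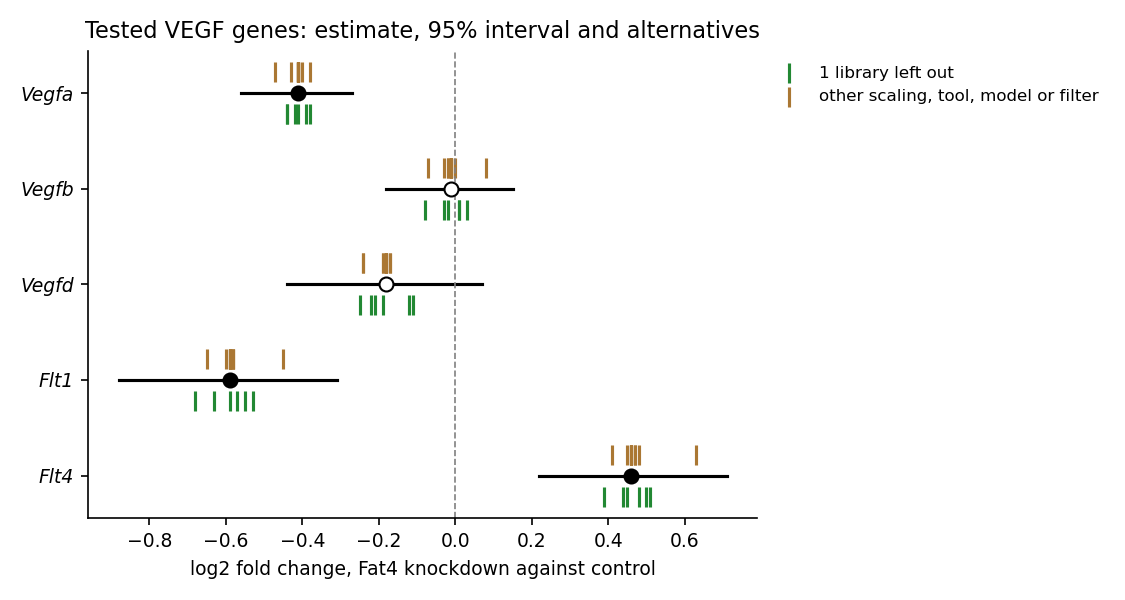
Log2 fold change (horizontal axis, Fat4 knockdown against control) of the 5 tested genes, with filled circles for those that passed the edgeR test, open circles for those that did not, and bars for the 95% interval. Green ticks are fits with 1 library left out and brown ticks fits with another scaling, tool, model or filter; the ticks of Vegfa and Flt1 all lie below 0 and those of Flt4 all above it, while those of Vegfb lie on both sides.

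The counts of the family were also taken as shares and ratios within each library. These restate the counts behind the changes of single genes above and are not further evidence. Flt1 gave 47.7 to 52.1% of the counts of the 3 receptor genes in control and 28.6 to 36.2% in knockdown libraries, and Flt4 gave 44.7 to 50.3% and 61.2 to 66.5%. Control libraries thus held about equal counts of both, and knockdown libraries held mostly Flt4. The Flt4 to Flt1 ratio of counts was 1.05, 0.930 and 0.859 in control and 2.33, 1.69 and 1.89 in knockdown libraries, a log2 difference of 1.05, or 1.13 without control replicate 1. Such a ratio is taken inside a library and does not depend on scaling. A two-sided exact permutation test gave p = 0.1, the smallest that 3 against 3 allows, and 0.15 after adjustment over the 3 ratios computed.

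Among ligands Vegfa gave 52.4 to 58.3% of the 5 genes' counts in control and 48.2 to 50.1% in knockdown libraries, and Vegfb gave 30.3 to 34.6% and 38.2 to 39.0%. The Vegfa to Vegfb ratio was 1.51, 1.6 and 1.92 in control and 1.24, 1.3 and 1.27 in knockdown libraries, a log2 difference of -0.40 (two-sided exact permutation test p = 0.1, adjusted 0.15), or -0.47 without control replicate 1. The lowest control ratio, in replicate 1, was still above every knockdown ratio. Vegfd kept a share of 9.83 to 11.6% in control and 9.88 to 11.8% in knockdown libraries, with overlapping groups. The Vegfc to Vegfa ratio, which rests on a few counts of Vegfc, differed by 0.03 on the log2 scale (two-sided exact permutation test p = 0.9, adjusted 0.9).

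**Figure D3:**
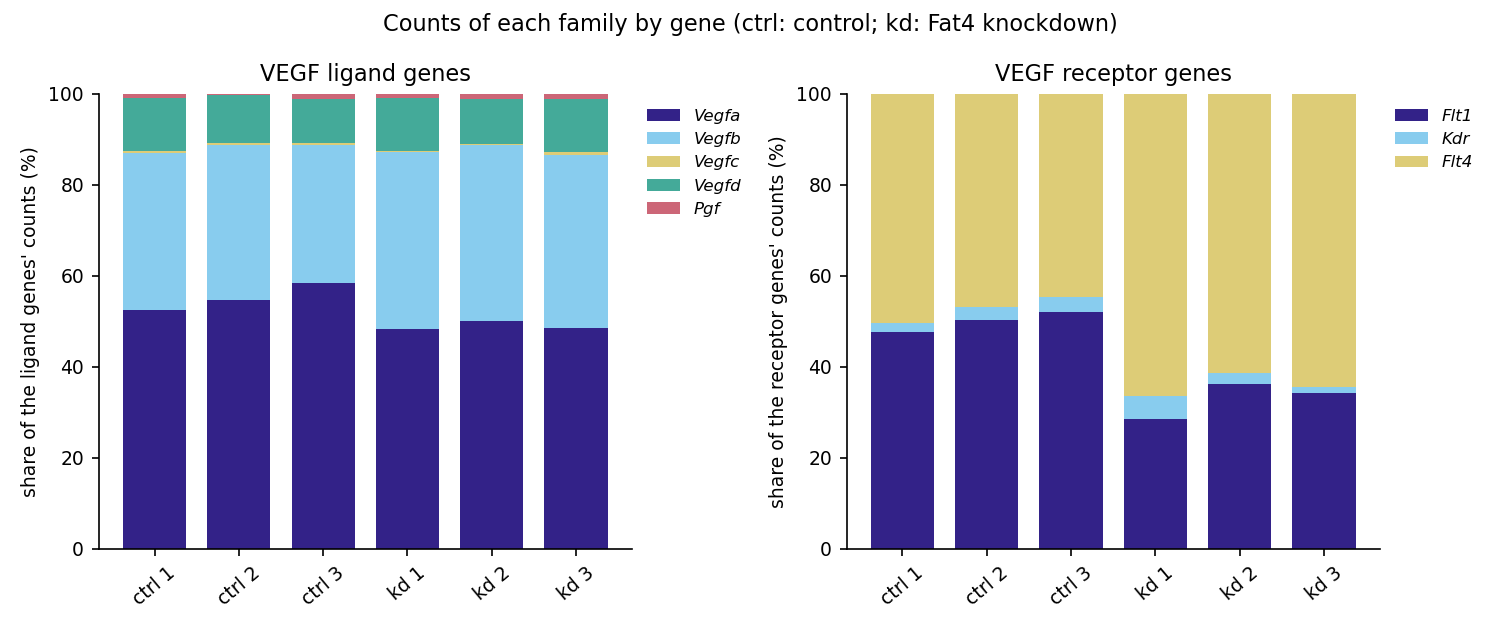
Share of counts (vertical axis, percent) that each gene took among the 5 VEGF ligand genes (left) and the 3 VEGF receptor genes (right) in each control (ctrl) and knockdown (kd) library. Flt4 takes 44.7 to 50.3% of receptor counts in control and 61.2 to 66.5% in knockdown libraries, and Vegfa takes a smaller part of ligand counts in every knockdown library than in any control library.

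Genes with the most similar profile over the 6 libraries were sought for each tested gene among 9318 genes with a mean of at least 5 CPM, as the smallest root mean square distance between log2 levels centred on each gene's mean. Nearest to Vegfa were the ubiquitin ligase gene Rnf167 (distance 0.0257), the synaptic vesicle protein gene Sv2a (0.0281) and the co-repressor gene Tle1 (0.0300), against a median distance of 0.22 over all genes. Nearest to Flt1 were the adenylate kinase gene Ak5 (0.0353), Lrrn4 (0.0472), one of the mesothelial markers, and the histone demethylase gene Kdm6b (0.0540), against a median of 0.304. Lrrn4 went from 134 to 90.6 CPM. Nearest to Flt4 were Nme1nme2 (0.0307), the hexosamine pathway enzyme gene Gnpnat1 (0.0311) and Nme-ps1 (0.0321), against a median of 0.265; Nme1nme2 and Nme-ps1 share sequence with Nme1 and Nme2, and their counts are uncertain. Nearest to Vegfb were the translation factor subunit gene Eif2b4, Akirin1 and Oxnad1, at distances of 0.0125 to 0.0257. Nearest to Vegfd were the copine gene Cpne8, the ligase gene Ufl1 and Arl6ip4, at 0.0375 to 0.0398. These are descriptions of 6 points that share the 2 groups, with no test. The nearest of 9318 genes lie below the median distance by construction, so that contrast is not evidence of a link.

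The genes that work with the family were taken from 8 lists, which hold 238 genes besides the family. Of the 196 tested, 11 were higher and 34 lower in the knockdown, 23.0% in all beside 17.4% of all tested genes, and the median log2 fold change was -0.08 beside -0.01. These counts moved with single libraries: 17 were called without control replicate 2 and 59 without control replicate 1, and there were 20 without knockdown replicate 2, 22 without control replicate 3 and 26 without knockdown replicate 1. Removing trends in GC content and exon length left 9 higher and 15 lower, 12.2% of the pathway genes beside 12.8% of all genes tested in that fit, so the share over the lists was then no higher than the background. In each of the other settings tried, the pathway share lay above that of all genes in the same fit. For DESeq2 and the fit without a filter on low counts, that background was 28752 genes with any count, against 13372 in the main fit. These 2 backgrounds are therefore unlike the others. It was 8.59% beside 7.56% without control replicate 2, 11.2% beside 9.02% without control replicate 3, and 13.1% beside 8.92% without knockdown replicate 1. Without control replicate 1 it was 29.8% beside 22.6%. Whether these shares differed was not tested. Scaling by library size alone gave 6 higher and 43 lower.

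At the cell surface, 15 of 16 co-receptors and partners were tested, of which none was higher and 2 were lower (13.3% beside 17.4% of all tested genes, median -0.03). The count was 1 without any 1 library other than control replicate 1, and 1 after removal of GC and length trends. Those fits called 7.56% to 13.1% of all tested genes. Nrp1, the neuropilin that carries Vegfa to Kdr, was at 9.42, 9.98 and 13.0 CPM in the control and 9.46, 9.89 and 11 CPM in the knockdown libraries (log2 fold change -0.11, 95% interval -0.38 to 0.17, edgeR adjusted p = 0.628). Nrp2, the partner of Flt4 for Vegfc, was at 31.7 ± 1.04 and 32.0 ± 3.27 CPM (mean ± SD of 3, log2 change 0.02, 95% interval -0.15 to 0.19, edgeR adjusted p = 0.908). Neither neuropilin passed the test, and both intervals leave out changes of the size of Flt1 or Flt4. Sdc2, a heparan sulfate proteoglycan that presents Vegfa, fell from 53.6 ± 1.99 to 42.3 ± 1.68 CPM (mean ± SD of 3, log2 change -0.34, edgeR adjusted p = 0.00289). The ubiquitin ligase gene Nedd4 passed as lower (-0.17, edgeR adjusted p = 0.0437), and its call was lost in 10 of 17 other settings.

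Processing and extracellular binding of the ligands gave 8 lower and no higher genes among 21 tested of 27 listed, 38.1% beside 17.4% of all tested genes (median -0.16). The count was 5 after removal of GC and length trends, 4 when either control replicate 2 or knockdown replicate 2 was left out, and 5 without each of control replicate 3, knockdown replicate 1 and knockdown replicate 3. Calls over all tested genes fell too, to 12.8% after removal of those trends, 7.56% without control replicate 2 and 8.52% without knockdown replicate 2. They were 9.02% without control replicate 3, 8.92% without knockdown replicate 1 and 13.1% without knockdown replicate 3. Pcsk5, a proprotein convertase that can cleave the Vegfc and Vegfd precursors, fell from 8.22 ± 0.401 to 4.55 ± 1.41 CPM (mean ± SD of 3, log2 change -0.85, edgeR adjusted p = 0.00349). Adamts1, a metalloprotease that can bind Vegfa and limit its action, was at 44.9, 47.8 and 50.1 CPM in the control and 26.3, 29.8 and 32.2 CPM in the knockdown libraries (log2 fold change -0.70, SE 0.08, edgeR adjusted p = 7.8e-05). Thbs1, thrombospondin 1, an inhibitor of vessel growth, fell from 24.5 ± 3.71 to 15.4 ± 1.84 CPM (mean ± SD of 3, log2 change -0.68, edgeR adjusted p = 0.00135). Hs6st1, which adds sulfate groups to the heparan chains that hold Vegfa, fell as well (-0.40, edgeR adjusted p = 0.00297). The list thus mixes activators and inhibitors of the ligands, and its lower genes included both. Calls of these 4 genes held in all 17 other settings.

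In the relay below the receptors, 3 genes were higher and 5 lower among 48 tested of 56 listed (median -0.11), a share of 16.7% beside 17.4% of all tested genes. The count was 2 without control replicate 2 and 14 without control replicate 1, was 3 without each of control replicate 3, knockdown replicate 1 and knockdown replicate 2, and with library-size scaling 1 was higher and 10 lower. It was 5 with DESeq2, and removal of GC and length trends left 1 higher and 1 lower. Calls over all tested genes moved as well, to 7.56% without control replicate 2, 22.6% without control replicate 1 and 12.8% after removal of those trends. They were 9.02% without control replicate 3, 8.92% without knockdown replicate 1 and 8.52% without knockdown replicate 2. Gab1, a docking protein for activated receptors, fell by 0.32 on the log2 scale (39.2 ± 1.41 to 31.4 ± 1.02 CPM, SD, n = 3; edgeR adjusted p = 0.00631). Pik3r2, a regulatory subunit of phosphoinositide 3-kinase, fell by 0.38 (edgeR adjusted p = 0.00631), a call lost after removal of GC and length trends. The related subunit gene Pik3r1 (-0.36) and the adaptor gene Nck1 (0.36) passed, and each lost its call in 7 of 17 other settings.

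Among phosphatases, ubiquitin ligases and trafficking proteins, which end or route receptor signals, 5 were lower and none higher of 28 tested (median -0.11, 17.9% beside 17.4%). Cbl, a ubiquitin ligase that marks activated receptor kinases for degradation, was at 88.3, 91.0 and 90.7 CPM in the control and 49.4, 53.5 and 58.8 CPM in the knockdown libraries. It fell by 0.74 on the log2 scale (SE 0.07), more than any other tested gene of this list, and the groups were far apart. Epn1, an endocytic adaptor that takes receptors into the cell, fell from 70.0 ± 3.98 to 52.3 ± 3.47 CPM (mean ± SD of 3, log2 change -0.42, edgeR adjusted p = 0.00105). Both calls held in all 17 other settings. The endocytic adaptor gene Dab2 (-0.26) and Gipc1 (-0.23), a neuropilin-binding trafficking protein, passed but lost their calls in 3 and 7 settings. The list's count was 2 without control replicate 2 and without control replicate 3, and 3 without each of the knockdown libraries, with DESeq2 and after removal of GC and length trends. Beside this, 7.56% of all tested genes were called without control replicate 2 and 9.02% without control replicate 3. The share was 12.8% after removal of GC and length trends.

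Of 38 genes known to be induced by VEGF in endothelium, 23 were tested, and 3 were higher and 3 lower (26.1% beside 17.4% of all tested genes, median 0.03). The same counts of 3 and 3 were found in all 17 other settings, but not always for the same genes. Without knockdown replicate 1, Dusp6 lost its call and another gene of the list passed as higher. Fosl1, an AP-1 transcription factor gene, rose from 95.6 ± 7.92 to 124 ± 5.41 CPM (mean ± SD of 3, log2 change 0.38, edgeR adjusted p = 0.00232). Ptgs2, cyclooxygenase 2, rose from 23.3 ± 1.82 to 30.3 ± 1.66 CPM (0.38, edgeR adjusted p = 0.00579), and Dusp6, a phosphatase that limits ERK signalling, rose by 0.39 (edgeR adjusted p = 0.00843), a call lost without knockdown replicate 1 (0.0566). Adamts9, a metalloprotease, fell from 17.4 ± 2.66 to 10.8 ± 1.15 CPM (-0.69, edgeR adjusted p = 0.00165). Equal numbers of this list thus passed in each direction, and 4 of its genes, Sele, Tfpi2, Sox17 and Sox18, had no count.

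Regulators of the ligands' own messenger RNA gave 8 lower and no higher genes among 26 tested of 27 listed, 30.8% beside 17.4% of all tested genes (median -0.03). The count moved with single libraries: 1 was lower without control replicate 2 and without knockdown replicate 2, 2 without control replicate 3, 3 without knockdown replicate 1, 4 without knockdown replicate 3, 5 with DESeq2, and 1 higher and 1 lower after removal of GC and length trends. Of all tested genes, 7.56% were called without control replicate 2, 8.52% without knockdown replicate 2 and 12.8% after removal of those trends. Egln1, the prolyl hydroxylase that marks HIF proteins for destruction, fell by 0.28 on the log2 scale (65.6 ± 4.15 to 54.3 ± 1.61 CPM, SD, n = 3, edgeR adjusted p = 0.00926). The Egln1 call was lost without control replicate 3 (edgeR adjusted p = 0.0515) and after removal of GC and length trends. The Hippo pathway transcription factor genes Tead3 (-0.30) and Tead2 (-0.26) passed, with calls lost in 3 and 6 of 17 other settings, and Sp1 (-0.26) passed in spite of overlapping groups and lost its call in 11. The hypoxia-inducible factor gene Hif1a did not pass (-0.07, edgeR adjusted p = 0.491).

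Other hypoxia-response genes, which share regulation by HIF with Vegfa, gave 3 higher and 1 lower among 21 tested (median 0.02, 19.0% beside 17.4%). P4ha1, a collagen prolyl hydroxylase gene, fell by 0.34 (edgeR adjusted p = 0.00875), and its call held in all 17 other settings. The mitochondrial genes Bnip3 (0.37), Higd1a (0.28) and Bnip3l (0.26) were higher, with calls lost in 6, 2 and 9 of 17 other settings. The list's count fell to 1 when either control replicate 2 or knockdown replicate 2 was left out, and to 2 when either control replicate 3 or knockdown replicate 1 was. It was also 2 with DESeq2 and after removal of GC and length trends, and in the main fit the share of this list was near that of all tested genes. All tested genes were called at 7.56% without control replicate 2, 8.52% without knockdown replicate 2 and 12.8% after removal of those trends.

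Of 27 transcription factors known to act on VEGF receptor genes, 15 were tested, 2 higher and 2 lower (26.7% beside 17.4% of all tested genes, median -0.04). Removal of GC and length trends gave 3 higher and none lower, library-size scaling none higher and 2 lower, and DESeq2 1 lower. The endothelial factors Etv2, Erg, Prox1, Sox17 and Sox18, and also Tbx1, had no count. The forkhead factor gene Foxc1 (-0.29) and the GATA factor gene Gata6 (-0.27) were lower, while the ETS factor gene Elk3 (0.26) and the Notch effector gene Rbpj (0.19) were higher. No call was made for this list without control replicate 2, 1 without control replicate 3 and without knockdown replicate 2, 2 without knockdown replicate 3 and 7 without control replicate 1, and each of the 4 calls was lost in 2 to 10 of 17 other settings. Calls over all tested genes moved too, at 7.56% without control replicate 2 and 22.6% without control replicate 1.

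**Figure D4:**
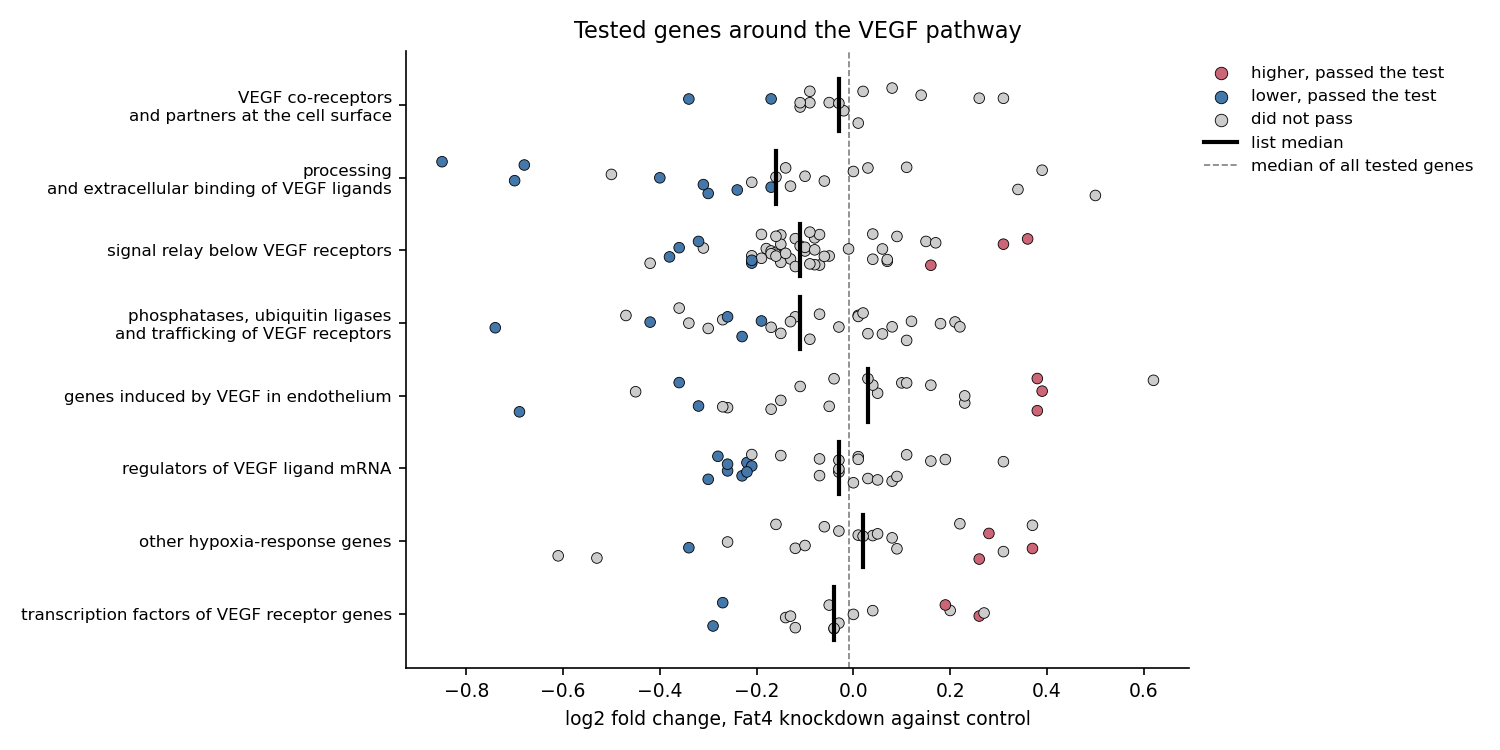
Log2 fold change (horizontal axis, Fat4 knockdown against control) of each tested gene in the 8 lists around the family, with red for genes that passed the edgeR test as higher, blue as lower and grey for the rest; black bars are list medians and the dashed line the median of all tested genes, -0.01. List medians lie between -0.16 and 0.03, and the ligand processing list has the lowest median, with 8 genes lower and none higher.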

How the data were processed

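Per the labels' protocols, messenger RNA was copied to cDNA and tagmented. The submitters' processing notes list the genome build GRCm39 and, in no stated order, the aligner STAR 2.7.11, the read trimmer fastp 0.24.0, SAMtools 1.22.1, and the quality reporters MultiQC 1.32 and FastQC 0.12.1. How reads were counted, whether strand was used and which annotation release was taken are not stated there, so genes with overlapping exons or near-identical copies are uncertain. The values used are the authors' deposited estimated counts per gene, of which 29.0% of nonzero values were not whole (tolerance 1e-06). The deposited CPM values equal each count divided by the library total. Of 78409 rows, 92 spike-in rows were left out.

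Counts were rounded, filtered with filterByExpr, scaled by TMM and tested with edgeR 4.0.16 (R 4.3.3) by the quasi-likelihood test with robust dispersion, 3 against 3, without a block, adjusted over all 13372 genes at 0.05. The biological coefficient of variation was 6.31%. Single levels and ratios were tested by exact permutation (two-sided), where 3 against 3 cannot go below 0.1. Intervals of summed counts cover counting error only. Ranges of shares and of levels per length use deposited counts or TMM-scaled CPM and the deposited exon lengths. Other settings were scaling by library size alone, by RLE and by the upper quartile, DESeq2 1.42.0, limma-voom (limma 3.58.1), other filters, counts rounded down, a replicate block, offsets for GC content and exon length (mgcv 1.9.3, GC known for 95.6% of tested genes from GRCm38 transcripts) and leaving out each library. Dispersion that is not robust was a setting added after seeing the data.

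The 8 genes, the pathway and marker lists and the motifs were chosen with earlier results of these data known. Named were the 8 genes, Fat4, Nrp1, Nrp2, the up to 4 called genes of largest change per pathway list with at least 5 CPM, and the 3 most similar genes of each tested gene. Hif1a and the marker and list genes named for having no count or a high level were picked after their values were seen. Replicate numbers did not pair the libraries (correlations of same-numbered deviations -0.211, -0.052 and -0.050). Libraries of a group differed by more than sampling noise in every pair, and all 6 entered. Tested on simulated data for knockdown against control over 13372 genes, the workflow found 33 of 50 genes at a 1.3-fold change, 44 of 50 at 1.5-fold and 50 of 50 at 2-fold, and 13 of 190 calls were false. The changed genes had a mean of at least 5 CPM, and all genes were given the same dispersion. These rates need not hold for scarcer genes or for genes that vary more between libraries.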

Additional observations from a re-analysis of the deposited data

How the results depend on the processing

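Of the 17 other settings, Vegfa was called in all 17 (edgeR, limma-voom and DESeq2 adjusted p up to 0.0111), Flt1 in 16 and Flt4 in 13. DESeq2 called 1 gene of the family, Vegfa, with log2 fold changes of -0.58 for Flt1 and 0.47 for Flt4 that missed its threshold, and 1443 genes in all, and the cause was not tested. With the replicate block, which assumes a pairing that the libraries did not show, 2001 genes were called, Vegfa, Flt1 and Flt4 among them (edgeR adjusted p = 0.00427, 0.0173 and 0.0241), and it changed no call of the family. Fits without 1 library called 1029 genes (without control replicate 2) to 3077 (without control replicate 1), 17 to 59 of the pathway genes under the same omissions, and 2 or 3 genes of the family, and the cause was not tested. Library-size scaling moved the median log2 fold change of all genes by -0.06 and gave 2593 calls, of which 32.9% were higher against 51.4% under TMM. Removing GC and length trends left 24 pathway genes and 1643 genes in all, 12.2% and 12.8% of those tested in that fit against 23.0% and 17.4%, and the cause was not tested. Log2 fold changes without 1 library ranged from 0.39 to 0.51 for Flt4, from -0.25 to -0.11 for Vegfd, from -0.08 to 0.03 for Vegfb, from -0.19 to 0.06 for Nrp1 and from -0.04 to 0.10 for Nrp2, and the difference in the Vegfc to Vegfa ratio from -0.21 to 0.32. Values not called also changed sign for Vegfb with the GC and length offsets (0.08) and for Nrp2 with library-size scaling (-0.04). At 10305810 to 11870091 counts per library, Vegfc, Pgf and Kdr were too scarce for a test.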
